A study of Drosophila melanogaster with 20 samples.

Results

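The genes described here encode proteins of the mitochondrial ribosome in Drosophila melanogaster. They were chosen by name, as probe sets with a single gene symbol that begins with mRpL or mRpS and a number, and where a gene had several, the brightest on average was used. This gave 69 genes, 44 of the large subunit (mRpL) and 25 of the small subunit (mRpS), of 11982 genes named singly on the array. RNA was measured on Affymetrix arrays in SL2 cells, an established Drosophila line from embryos that resembles blood cells. The cells carried no labelled allele and were left untreated or received dsRNA (double-stranded RNA, which triggers RNA interference) targeting selenophosphate synthetase 1, SPS1, and were collected at day 1, 3 or 5. There were 5 untreated and 5 SPS1 dsRNA samples at day 1 and 2 of each at days 3 and 5. Untreated cells received no dsRNA at all, so the presence of dsRNA and the loss of SPS1 cannot be told apart. The array had 0 probe sets annotated to SPS1 itself, so the depth of the knockdown was not measured.

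Mitochondria keep a small genome that encodes a few core subunits of the respiratory chain, and a dedicated ribosome inside the organelle translates their messenger RNAs. The RNA of that ribosome is made in the mitochondrion, whereas its proteins are encoded in the nucleus, made in the cytosol and imported. The small subunit binds the messenger RNA and decodes it, and the large subunit joins the amino acids. Many of the proteins descend from those of bacterial ribosomes and keep their numbers, and others are found only in mitochondria. A mutation in tko, which encodes the small-subunit protein S12 under a name of its own, is a classical Drosophila model of impaired mitochondrial translation.

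All values are log2 intensities as deposited, so a difference of 1 is a doubling. A change means SPS1 dsRNA minus untreated unless stated otherwise, and it was tested in a single linear model in limma over all 18 samples and 18769 probe sets. An adjusted p (Benjamini-Hochberg over all probe sets) under 0.05 counted as a change, and SE is the standard error of that model. Genes said to have fallen or risen were called lower or higher with dsRNA than untreated on the same day. Neither word describes a course over days. The titles call all 18 samples biological replicates and set 2 further day 3 arrays apart as technical ones, and no label says what a biological replicate is (a culture or a transfection). Same-numbered samples of a day deviated together, and a second fit pairs them (the replicate block).

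A few features of the arrays bear on the members. All 69 members were well expressed, with means from 8.47 to 12.08 against array medians of 4.53 to 4.69. At day 5 bright probe sets as a whole lay lower in SPS1 dsRNA cells, with a median change of -0.080 over the 4703 probe sets with a mean above 8, against 0.014 over all probe sets. A background over these bright probe sets, added after the values were seen, is therefore given beside that over all. Of the 12 largest root mean square differences between samples, 11 involved a day 5 SPS1 dsRNA sample. As blood-cell markers srp (mean 10.16), ush (9.84), drpr (9.15) and crq (8.49) were bright, whereas He (3.64), Sr-CI (3.70) and NimC1 (4.56) lay near or below the array medians, as did the 4 muscle markers (3.26 to 4.07). The neuron markers had means from 3.48 to 6.43, and those of the fat body from 3.499 to 5.016. Fewer cells of a type and less RNA per cell cannot be told apart in such bulk samples.

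The mean levels of both subunits moved together across the study and were highest in untreated cells at day 5, though not every single member was. Over the 44 large-subunit members the mean level was 9.94 ± 0.058 (SD, n = 5) in untreated and 9.92 ± 0.049 (n = 5) in SPS1 dsRNA cells at day 1. At day 3 it was 9.90 ± 0.026 and 9.92 ± 0.12 (n = 2 each). At day 5 it was 10.06 ± 0.062 untreated and 9.88 ± 0.027 with SPS1 dsRNA (n = 2 each). The day 5 samples did not overlap, with 10.10 and 10.02 untreated against 9.86 and 9.90 with dsRNA. For the 25 small-subunit members the day 5 samples were at 10.14 and 10.06 untreated and at 9.92 and 9.96 with dsRNA. The other groups had small-subunit means of 9.96 and 9.94 at day 1 and 9.94 and 9.95 at day 3, in that order. Thus the SPS1 dsRNA samples of day 5 lay within the range of the day 1 samples for both subunits, and the untreated samples of day 5 close to its top or above it.

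**Figure D1:**
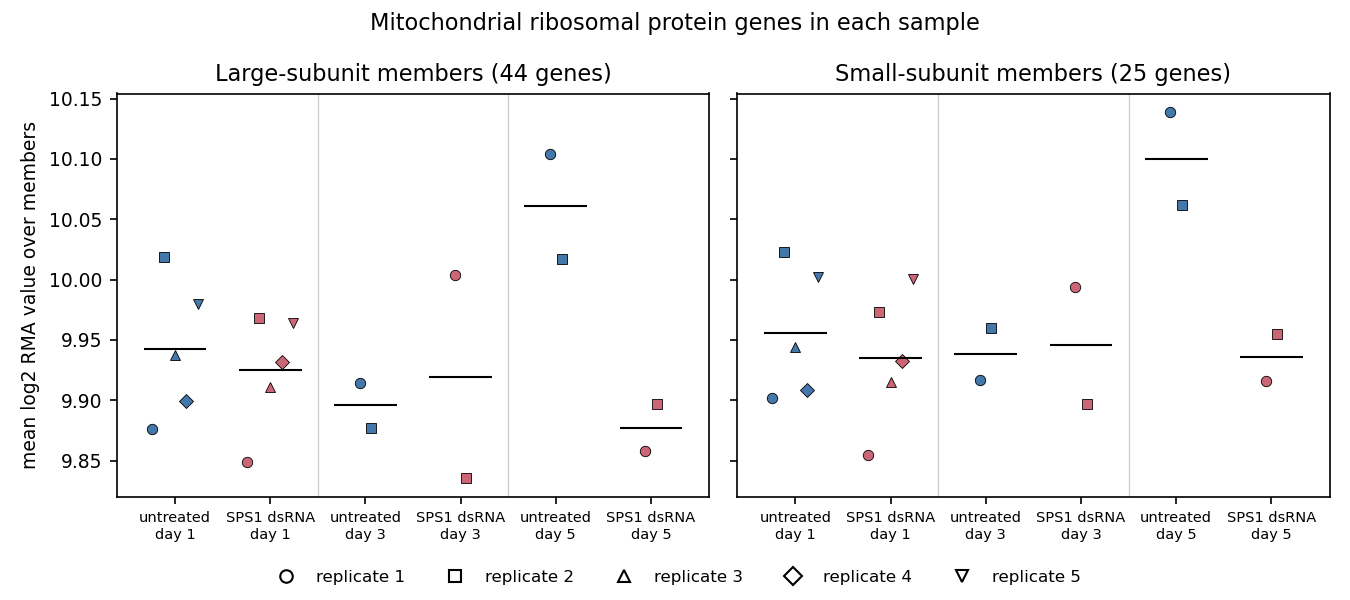
Mean log2 RMA value over the 44 large-subunit members (left) and the 25 small-subunit members (right) in each of the 18 samples; symbols mark replicate numbers and black lines the group means. The untreated day 5 samples (10.10 and 10.02 for the large subunit) lie above both SPS1 dsRNA day 5 samples (9.86 and 9.90).

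At day 1 none of the 69 members passed the threshold in limma, as none of the 18769 probe sets did (0% called), and 0 members had an unadjusted p under 0.05. Changes ran from -0.10 to 0.11, with medians of -0.023 in both subunits against 0.0014 over all probe sets. Without SPS1 dsRNA replicate 1 the medians were 0.0036 and 0.0123. In the large subunit the largest were in mRpL3 (0.11), a protein near the catalytic centre, mRpL48 (-0.097), mRpL38 (0.085) and mRpL51 (-0.083). In the small subunit they were in mRpS6 (-0.10), mRpS22 (-0.093), mRpS11 (0.087), a protein of the platform, and mRpS24 (-0.078). In each of these the samples of the 2 groups overlapped, but within same-numbered pairs mRpL3 and mRpS11 were higher and mRpL51, mRpS6 and mRpS22 lower with dsRNA in 5 of 5. Of all 69 members 7 were lower in every pair and 5 higher, where 3.73% and 3.49% of all and 5.59% and 5% of bright probe sets were. In the fit with the replicate block 0 members and 0% of all probe sets passed as well. The number of members lower in dsRNA cells was 48, 53, 45, 19 and 40 of 69 in same-numbered pairs 1 to 5. Thus most members were higher in pair 4 and lower in the other pairs.

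At day 3 the members again showed no call, with 0 of 69 past the threshold in limma and 0.176% of all probe sets called. An unadjusted p under 0.05 was found in 2 members, 633 of 18769 probe sets and 257 of 4703 bright ones. With the replicate block 0 of 69 passed, where 1.25% of all probe sets were called. In that fit 6 members had an unadjusted p under 0.05, as had 1863 of 18769 probe sets and 782 of 4703 bright ones. The median change was 0.019 for the large and 0.0075 for the small subunit, against 0.0018 over all probe sets. The 2 pairs went apart, with 13 of 69 members lower in pair 1 and 48 of 69 in pair 2. The median of the large subunit was accordingly -0.060 without SPS1 dsRNA replicate 1 and 0.092 without replicate 2.

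Single members stood apart at day 3 without passing. mRpS11 measured 10.33 and 10.36 in untreated cells and 10.59 in both dsRNA samples, a change of 0.25 (SE 0.080, adjusted p = 0.72). mRpL41, a protein found only in mitochondrial ribosomes, measured 9.496 and 9.431 untreated and 9.68 and 9.73 with dsRNA, a change of 0.24 (adjusted p = 1). In both genes all dsRNA samples of the day lay above the untreated ones. This held for 14 members, and the reverse for 4, where 12.1% and 12.2% of all probe sets were separated in these directions. Of bright probe sets 14.5% were separated with dsRNA lower, and their share with dsRNA higher is not given here. The other members with the largest changes were mRpL23 (0.18), which lines the exit of the peptide tunnel, mRpL20 (0.15) and mRpL27 (0.14), and in the small subunit mRpS16 (0.23), mRpS5 (-0.22) and mRpS24 (0.19). With 1 sample left out mRpL23 ranged from 0.052 (without SPS1 dsRNA replicate 1) to 0.303 (without replicate 2), mRpL27 from 0.0638 to 0.225 for the same samples, and mRpS24 from 0.0552 to 0.32 (without untreated replicates 1 and 2). mRpL20 was at -0.0575 without SPS1 dsRNA replicate 1 and at -0.0065 without untreated replicate 2 of day 3.

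At day 5 most members lay lower in SPS1 dsRNA cells, by small amounts, and 1 fell in the test. The change was negative in 61 of 69 members, 40 of 44 in the large and 21 of 25 in the small subunit, and ran from -0.55 to 0.15. Of all 18769 probe sets 8708 were negative, and of the 4703 bright ones 3008. The median was -0.20 for the large and -0.17 for the small subunit, against 0.014 over all and -0.080 over bright probe sets. After cyclic loess scaling, which brings the median of bright probe sets to 0.00074, 53 of 69 members were negative and the medians were -0.12 and -0.087. In 47 members, 31 of the large and 16 of the small subunit, both dsRNA samples lay below both untreated ones, as in 17.5% of all and 36% of bright probe sets. In 2 members, mRpL41 and mRpS11, both lay above, as in 17.8% of all probe sets.

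**Figure D2:**
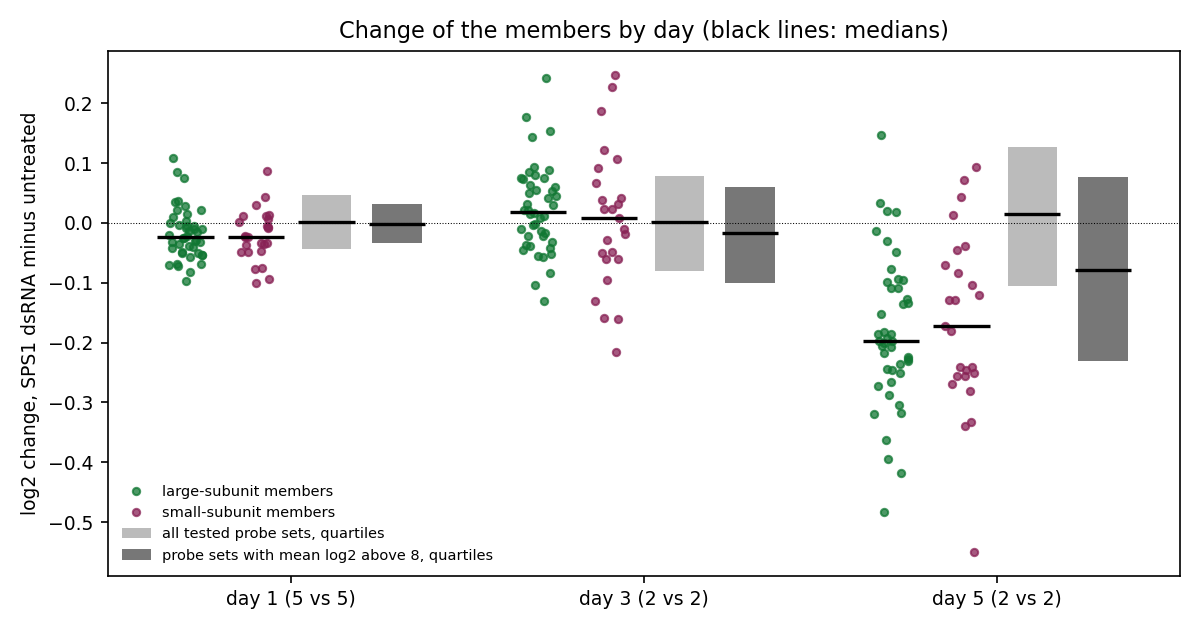
Log2 change (SPS1 dsRNA minus untreated) of each member at days 1, 3 and 5, with black lines at the medians, beside the quartiles of all 18769 probe sets and of the 4703 with a mean above 8. At day 5 the medians of the large (-0.20) and small subunit (-0.17) lie below that of the bright probe sets (-0.080).

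Of the 69 members 1 passed at day 5 in limma, mRpL18, and 21 had an unadjusted p under 0.05. Such a p was found in 2372 of all 18769 probe sets and in 1091 of the 4703 bright ones. Over all probe sets 2.79% were called at day 5, 1.59% as lower, and of bright ones 3.61% as lower. The protein mRpL18 belongs to a family that in bacteria holds 5S ribosomal RNA in the large subunit. At day 5 it measured 10.28 and 10.16 in untreated cells and 9.76 and 9.89 in dsRNA cells. The untreated samples were the 2 highest of all 18. At day 1 the untreated samples measured 9.88, 10.01, 9.92, 9.86 and 9.87, and the dsRNA samples 9.82, 9.83, 9.82, 9.95 and 9.97. At day 3 they measured 9.64 and 9.75 untreated and 9.82 and 9.66 with dsRNA. The groups overlapped on both of these days and not at day 5, where the gene was lower with dsRNA by 0.39 (1.31-fold, SE 0.096, adjusted p = 0.034). The change was lower in 2 of 2 pairs, -0.53 and -0.26. Over fits with 1 sample left out it was between -0.46 and -0.33, and the call was lost without untreated replicate 1 (adjusted p = 0.28), untreated replicate 2 (adjusted p = 0.08) or SPS1 dsRNA replicate 1 (adjusted p = 0.3) of day 5. It was also lost with cyclic loess (-0.31, adjusted p = 0.13).

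With the replicate block 15 members fell at day 5, 9 of the large and 6 of the small subunit, and 0 rose. That fit called 12.2% of all probe sets, 7.14% as lower, and 17.7% of bright ones as lower, so the share of members called, 15 of 69, lay close to that of bright probe sets. The 9 were mRpL2, a protein close to the catalytic centre, mRpL12, which forms the stalk that recruits elongation factors, mRpL14, mRpL15, mRpL18, mRpL21, mRpL44, mRpL49 and mRpL52. The 6 were mRpS14, mRpS18C, mRpS31, mRpS33, mRpS34 and mRpS35. Without pair 1 of day 5, 0 passed with the block, where 1.59% of all probe sets were called lower. Without pair 2, 8 did, of which 6 were among the 15, where 5.62% were. With the block after cyclic loess 6 of the 15 were called lower, where 5.66% were, and mRpL41 higher (0.24, adjusted p = 0.05). The shares given for the fits without a pair and after cyclic loess cover all probe sets. Those of bright probe sets are not given here, so these counts have no background of like brightness.

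**Figure D3:**
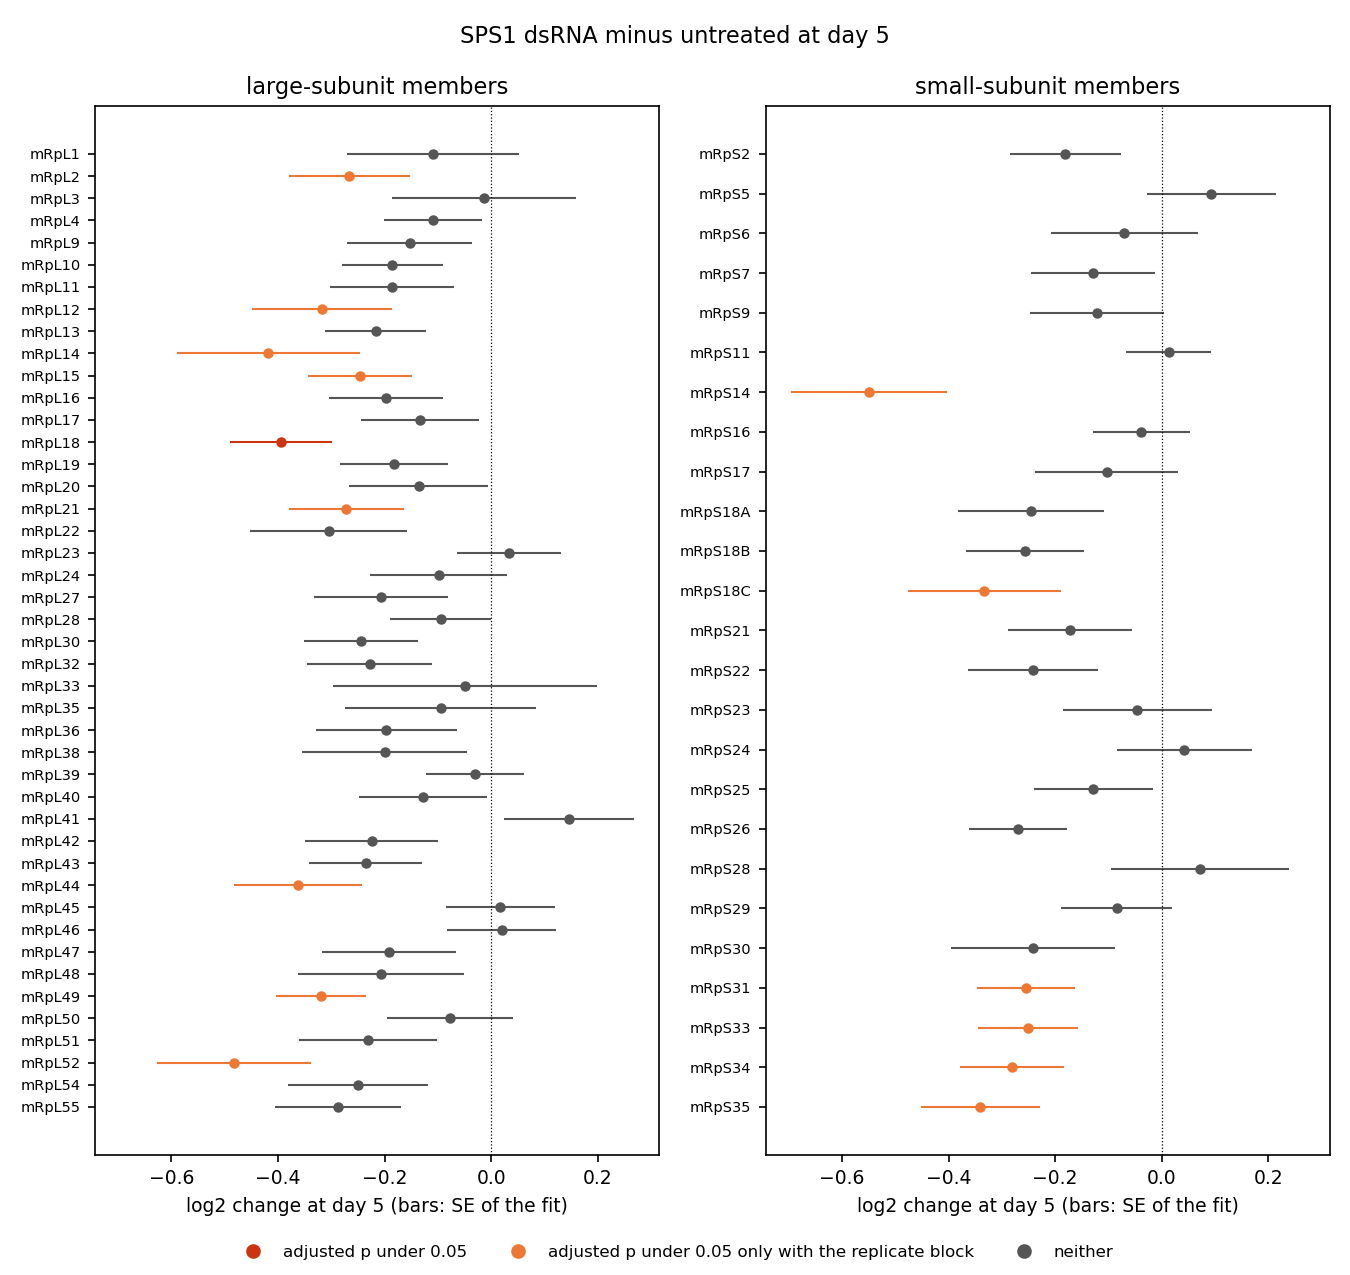
Log2 change at day 5 of each of the 69 members, large subunit on the left and small on the right, with the SE of the fit as bars. The 1 member called in limma (mRpL18, red) and the 14 called only with the replicate block (orange) all lie below 0, and 8 members lie above 0.

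The largest change of all members at day 5 was that of mRpS14, a protein of the head of the small subunit. It measured 10.77 and 10.46 in untreated cells and 10.09 and 10.03 in dsRNA cells, without overlap. The change was -0.55 (1.46-fold, SE 0.15), with adjusted p = 0.057 in limma and adjusted p = 0.002 with the replicate block. At day 1 its samples ran from 10.13 to 10.45 untreated and from 10.04 to 10.37 with dsRNA, so the untreated samples of day 5 were the highest measured. Leaving out 1 sample gave changes from -0.70 to -0.40 and adjusted p from 0.037 to 0.4, and the gene passed in limma without SPS1 dsRNA replicate 1 or 2 of day 3 or replicate 5 of day 1.

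In the large subunit mRpL52, a protein specific to mitochondria, changed most. It measured 10.29 and 10.37 untreated and 9.60 and 10.09 with dsRNA, a change of -0.48 (SE 0.14, adjusted p = 0.099, and adjusted p = 0.0094 with the block). The dsRNA samples were far apart, and the change was -0.235 without SPS1 dsRNA replicate 1 and -0.729 (adjusted p = 0.0082) without replicate 2. mRpL44, a relative of ribonuclease III, measured 11.02 and 10.98 untreated and 10.63 and 10.65 with dsRNA. Its groups were tight and separate, and the change was -0.36 (SE 0.12, adjusted p = 0.15, and adjusted p = 0.0069 with the block). mRpL14, at the interface between the subunits, measured 11.502 and 11.226 untreated against 10.891 and 11.001 with dsRNA, a change of -0.42 (adjusted p = 0.3, and adjusted p = 0.018 with the block). Without the first untreated replicate of the day its change was -0.28, and without the second -0.556.

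Of the small subunit mRpS35 was at -0.34, mRpS18C at -0.33 and mRpS34 at -0.28, with adjusted p from 0.14 to 0.33 in limma and from 0.017 to 0.049 with the block. In each the 4 samples of day 5 were separated by group. For mRpS34 they were 10.34 and 10.29 untreated and 10.03 and 10.04 with dsRNA.

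At the other end, 8 members were positive at day 5: mRpL23, mRpL41, mRpL45 and mRpL46 of the large and mRpS5, mRpS11, mRpS24 and mRpS28 of the small subunit. The largest was mRpL41 (0.15, SE 0.12, adjusted p = 0.73), at 9.72 and 9.64 untreated and 9.77 and 9.88 with dsRNA. mRpS11, higher with dsRNA at day 3, was at 10.50 and 10.52 untreated and 10.52 and 10.53 with dsRNA, a change of 0.013 (SE 0.080, adjusted p = 0.99). Its untreated samples were 0.24 above those of day 1 (adjusted p = 0.19). In 5 of 69 members both pairs of day 5 were positive, where 32.7% of all and 28.1% of bright probe sets were. These 5 are the members named here without mRpL45, mRpL46 and mRpS24. In 52 of 69 (75.4%) both pairs were negative, as in 29.4% of all and 51.9% of bright probe sets.

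**Figure D4:**
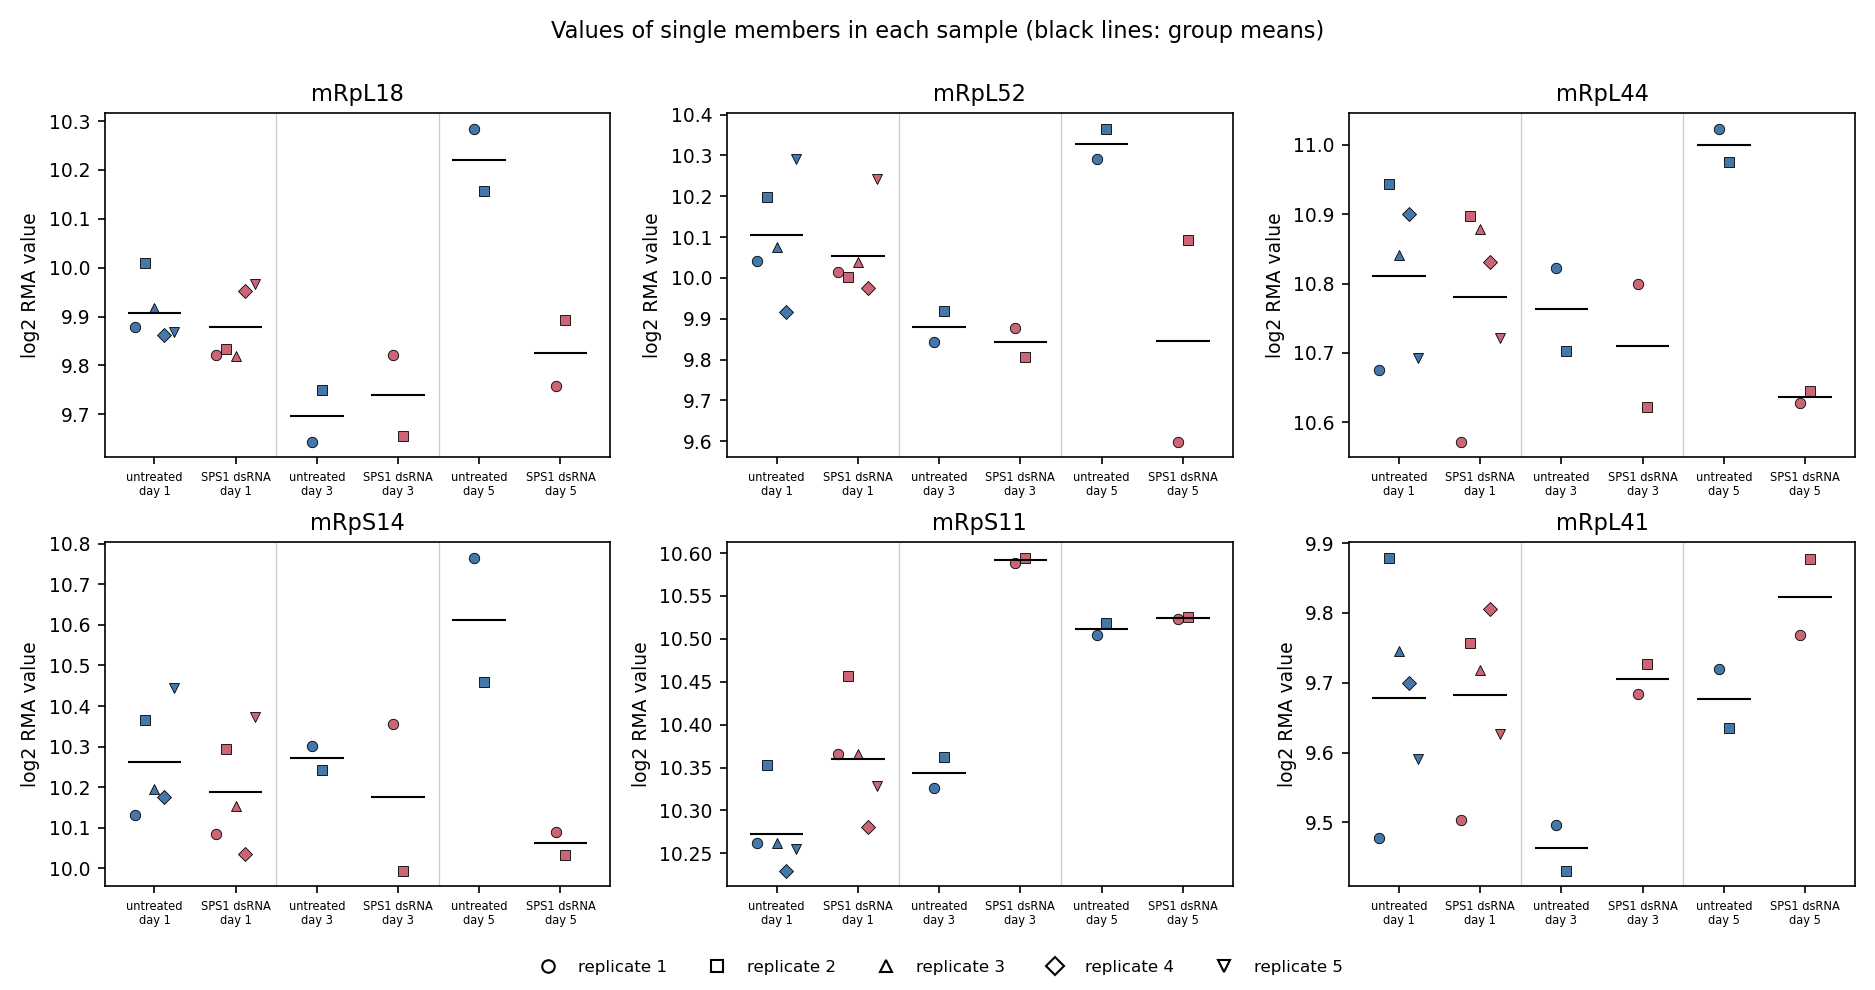
Log2 RMA values of 6 members in each of the 18 samples, with symbols for replicate numbers and black lines at the group means; the vertical axes differ. mRpL18, mRpL52, mRpL44 and mRpS14 are highest on average in untreated cells at day 5, and mRpS11 and mRpL41 lie higher with dsRNA at day 3.

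The subunits were compared through their medians, since genes are not replicates of a condition. The large minus the small median was -0.00010 at day 1, 0.011 at day 3 and -0.025 at day 5. Within single samples the large minus the small mean was -0.035 and -0.045 untreated and -0.058 in both dsRNA samples at day 5, and -0.0028 and -0.083 untreated and 0.0095 and -0.062 with dsRNA at day 3. Replicates were thus farther apart at day 3 than at day 5. In pairs 1 and 2 of day 5 the medians were -0.25 and -0.13 for the large and -0.27 and -0.14 for the small subunit, so the small subunit was slightly lower in each pair. The mammalian counterparts of mRpS18A and mRpS30 sit in the large subunit despite their names. With both counted there, an alternative added after the data were seen, the medians were -0.20 (46 members) and -0.13 (23 members), a difference of -0.0705.

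Proteins with bacterial counterparts and those specific to mitochondria were also set side by side, using the number in the name (up to 36 for the large and 21 for the small subunit as bacterial). At day 5, 37 of 40 bacterial-type members were negative with a median of -0.18, and 24 of 29 mitochondria-specific ones with a median of -0.22. With the replicate block 8 of 40 and 7 of 29 fell, both near the 17.7% of bright probe sets that did. The call in limma, mRpL18, was of the bacterial type. The quartiles of the 2 classes overlapped, from -0.25 to -0.10 and from -0.26 to -0.077.

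In untreated cells alone, 0 of 69 members passed between days 3 and 1 and 0 between days 5 and 1, with 5 and 18 unadjusted p under 0.05. Of all probe sets 0.107% and 0.186% were called. Unadjusted p under 0.05 were found in 1195 and 2033 of 18769 probe sets, and in 615 and 798 of 4703 bright ones. The median change of the members was -0.048 at day 3 and 0.15 at day 5, against -0.0083 and -0.024 over all and -0.031 and 0.021 over bright probe sets. At day 5, 58 of 69 members were above day 1, as were 8131 of 18769 probe sets and 2586 of 4703 bright ones. The smallest p belonged to mRpL18 (0.31, SE 0.080, adjusted p = 0.15) and mRpL23 (0.31, SE 0.082, adjusted p = 0.17). In SPS1 dsRNA cells the day 5 means lay above those of day 1 in 23 members and below in 46, with a median difference of -0.044, against -0.053 over bright probe sets. The comparison of day 5 and that of untreated cells over days share the untreated samples of day 5.

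Whether the dsRNA change differed between days 5 and 1 was tested directly, and 0 of 69 members passed in limma, where 1.4% of all probe sets did. An unadjusted p under 0.05 was found in 8 members, 1736 of 18769 probe sets and 747 of 4703 bright ones. The median difference was -0.17, against 0.0092 over all and -0.080 over bright probe sets, and 62 of 69 were negative, as were 3016 of 4703 bright probe sets. With the replicate block mRpS14 (-0.47, adjusted p = 0.02) and mRpL44 (-0.33, adjusted p = 0.04) passed, where 6.82% of all probe sets did.

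Other genes of mitochondrial translation, and those of mitochondrial DNA, mostly had negative changes at day 5, and few passed. Changes were negative in 8708 of 18769 probe sets and in 3008 of 4703 bright ones. Called lower were 1.59% of all and 3.61% of bright probe sets in limma, and 7.14% and 17.7% with the block. Of the 2 mitochondrial ribosomal proteins with names of their own, tko was at -0.27 (SE 0.15, adjusted p = 0.52) and bonsai, the small-subunit protein S15, at -0.25 (SE 0.093, adjusted p = 0.23). Of 10 measured translation factors 1 fell, mEFTs (-0.44, SE 0.11, adjusted p = 0.036), the elongation factor that recharges the factor carrying transfer RNA to the ribosome, and 8 were negative with a median of -0.15. Over the 6 with a mean above 8 the median was -0.092, with 4 negative, and mEFTu1 and GatA were positive at 0.0885 and 0.088. Of 14 mitochondrial aminoacyl-tRNA synthetases 0 passed in limma, 2 had an unadjusted p under 0.05 and 12 were negative, with a median of -0.13 (also -0.13 over the 5 with a mean above 8). Of these ValRS-m passed with the block (-0.32, adjusted p = 0.027). Of 10 genes of mitochondrial DNA maintenance and transcription 0 passed, 4 had an unadjusted p under 0.05 and 9 were negative, with a median of -0.19 (-0.22 over the 7 with a mean above 8). With the block mtDNA-helicase (-0.75, adjusted p = 0.0061), which unwinds mitochondrial DNA, and mtSSB (-0.31, adjusted p = 0.023), which coats its single strands, passed.

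The subunits of oxidative phosphorylation and the cytosolic ribosomal proteins had medians near 0 at day 5. Over all 18769 probe sets 224 rose in limma and 952 with the block. Of 72 oxidative phosphorylation genes 1 rose, Cyt-c1L (0.68, adjusted p = 0.035), 37 were negative and the median was -0.0030; with the block 2 rose and 1 fell. Over the 50 of them with a mean above 8 the median was -0.023. The 41 cytosolic ribosomal protein genes were taken by symbol, cover only part of that ribosome and include relatives such as RpL22-like and RpLP0-like. Of these 41 genes 1 fell in limma, RpS10a (-1.24, adjusted p = 0.023), and with the block 2 fell. Changes were negative in 14 of them and the median was 0.021. Over the 34 with a mean above 8 it was 0.023. The difference between these lists and the mitochondrial ribosomal proteins was not tested, and 0 genes encoded in mitochondrial DNA were measured by name.

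**Figure D5:**
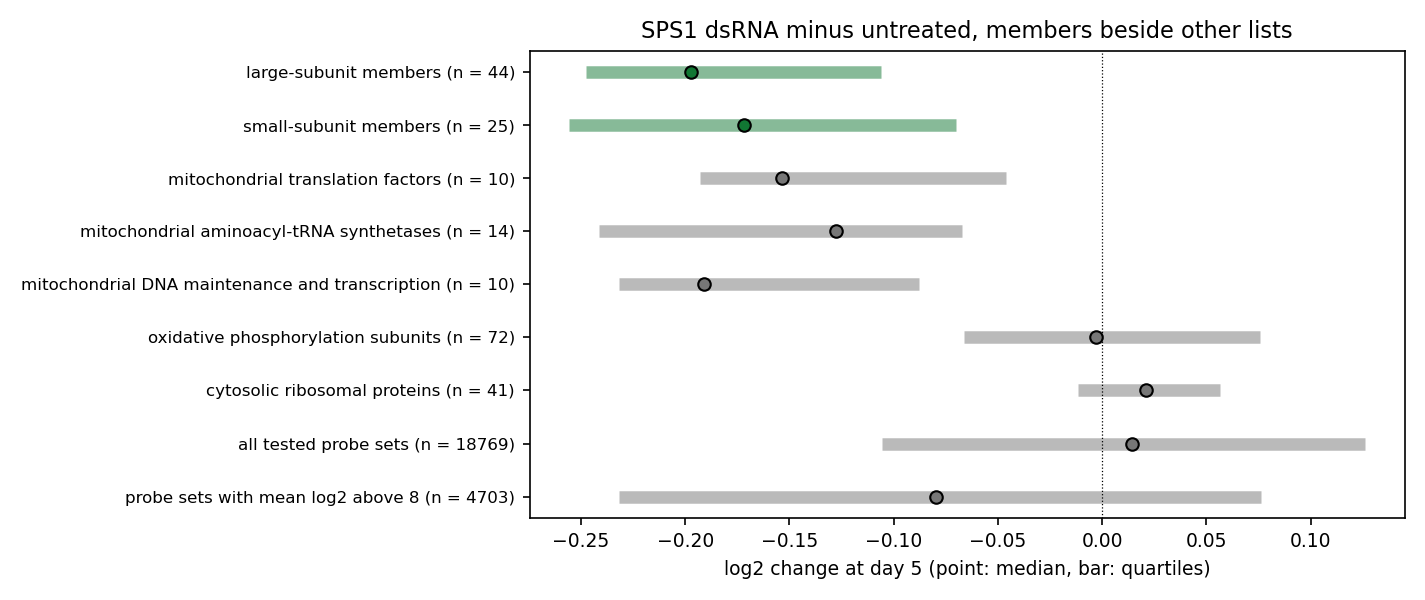
Median (point) and quartiles (bar) of the log2 change at day 5 for the 2 subunits, 5 other lists and the backgrounds, with the number of genes or probe sets in each. The large- and small-subunit medians (-0.20 and -0.17) lie near those of the other genes of mitochondrial gene expression (-0.13 to -0.19), and the medians of the oxidative phosphorylation (-0.0030) and cytosolic ribosomal protein genes (0.021) near 0.

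Of the cell type markers only some blood-cell markers passed at day 5. Called higher on that day were 224 of all 18769 probe sets in limma and 952 with the block. The mean of the 12 blood-cell markers was 6.12 and 6.16 in untreated and 6.70 and 7.04 in SPS1 dsRNA samples. In limma 3 of them rose, Pxn (2.35), eater (3.28) and drpr (1.21), with adjusted p from 0.00015 to 0.048, and with the block 5 rose. Among the others srp was at 0.28 (adjusted p = 0.71), ush at -0.064 and crq at -0.22, and the 4 markers with a mean above 8 had a median of 0.11, with 2 negative. At day 3, 10 of 12 were positive with a median of 0.28, and 0 passed. Of the 5 neuron, 4 muscle and 5 fat body markers 0 passed at day 5, and the count with an unadjusted p below 0.05 in limma was also 0. The excess of actin probes at the 3′ over the 5′ end, a sign of RNA breakdown, was 0.374 and 0.121 untreated and 0.345 and 0.172 with dsRNA, so the groups overlapped. The part of the blood-cell markers in the changes of the members was not tested.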

How the data were processed

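RNA of SL2 cells was hybridised to Affymetrix arrays, and the authors deposited log2 values made with RMA, per the submitters' processing notes, for 18952 probe sets on 20 arrays. Sources used here give no RMA version, annotation or genome build. The arrays had near-equal distributions (sorted values within 0.398 of each other) and were not scaled again. RMA compresses small signals, and the number of arrays limits the precision. Groups came from sample titles, while the source field of the day 5 SPS1 dsRNA samples reads as untreated. The fit held 18769 probe sets, without the 183 controls. All 69 members matched RefSeq gene identifiers with the same symbol, and the probe set of mRpS18B is of a type that may cross-hybridise. mRpL47 and mRpS11 had 2 probe sets each, and at day 5 those of mRpS11 were at 0.013 and -0.040 and those of mRpL47 at -0.19 and -0.11.

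The 2 technical arrays of day 3, whose actin 3′ to 5′ excess (1.04 and 1.24) exceeded that of the 18 other arrays (0.12 to 0.55), were averaged with replicate 2 of their group. The fit used limma 3.58.1 under R 4.3.3 with 12 residual and 4.26 prior degrees of freedom, so days 3 and 5 draw most of their spread from day 1. It was tested on simulated data. Same-numbered samples deviated together (r from 0.69 to 0.84 in the 5 pairs of day 1, 0.78 at day 3 and 0.71 at day 5, over probe sets with mean above 6), and the pairing comes from the data, as no label explains the numbers. Named members were those past the threshold and the 4 of each subunit with the largest change on each day, besides members with a discordant probe set; genes of the other lists were named when they passed. ValRS-m, mtDNA-helicase, mtSSB, tko, bonsai and members called only with the block or singled out as positive were named after their values were seen. The genes mEFTu1, GatA, srp, ush, crq, He, Sr-CI and NimC1 were named too, though they did not pass in limma. Members and lists were chosen with earlier results of these data known. Alternatives covered scaling, dim probe sets, the variance model, the samples in the fit, technical arrays, probe sets per gene and each sample left out.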

Additional observations from a re-analysis of the deposited data

Results flagged for a closer look

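Of 48 day 1 groups of 5 samples (24 measures in 2 groups), 2 held a sample far from the other 4, where chance gives about 1 in 20. mRpL52 measured 10.24 in SPS1 dsRNA replicate 5 of day 1, against 9.98 to 10.04 in the other samples of that group. Untreated replicate 5 of that day was likewise the highest of its group, at 10.29. mRpS11 measured 10.35 in untreated replicate 2 of day 1, against 10.23 to 10.26 in the others. SPS1 dsRNA replicate 2 of that day was likewise the highest of its group, at 10.46.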

How the results depend on the processing

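The counts of called members at days 1 and 3 and between days of untreated cells were 0 in every alternative that gave a value. Between days of untreated cells the replicate block gives none, since it holds day. At day 5 the main fit called 1.59% of all and 3.61% of bright probe sets lower. These shares were 1.7% and 4.1% with array medians subtracted, and 1.39% and 2.87% with cyclic loess. With the replicate block they were 7.14% and 17.7%. For the block with other scaling or without a pair, only the share of all probe sets is given here. The counts of those fits thus have no background of like brightness. The count of called members, 1 in the main fit, became 15 with the replicate block and 3 with array medians subtracted. It was also 3 with probe sets of mean log2 under 5 left out or with technical arrays averaged with replicate 1. It was 0 with cyclic loess, with an intensity trend or from day 5 alone. It was 0 to 2 with 1 sample left out, 0 without untreated replicate 1 or 2 or SPS1 dsRNA replicate 1 of day 5, and 2 without SPS1 dsRNA replicate 2 of day 5, 1 or 2 of day 3 or 5 of day 1. Added after seeing the data, the block gave 7 after cyclic loess, 23 with array medians subtracted, and 0 and 8 without pair 1 and pair 2, where 5.66%, 9.05%, 1.59% and 5.62% of all probe sets were called lower and 7.14% with the block alone. For the difference between days 5 and 1 the count of 0 became 2 with the replicate block and was 0 to 1 with 1 sample left out (1 without SPS1 dsRNA replicate 2 of day 5). The median of the large subunit at day 5 was -0.264 with array medians subtracted, -0.118 with cyclic loess and -0.126 without pair 1, and that of the small subunit -0.239, -0.0872 and, without pair 2, -0.271. With 1 sample left out the large-subunit median was -0.235 to -0.163 at day 5 and -0.0595 to 0.0916 at day 3, and the small-subunit median -0.202 to -0.141 at day 5. At day 1 the medians were -0.041 to 0.0036 and -0.0529 to 0.0123. Large minus small at day 5 was 0.0155 without pair 1, 0.0185 without pair 2, -0.0705 with mRpS18A and mRpS30 in the large subunit and -0.046 to -0.0212 with 1 sample left out. The change of mRpL20 at day 3 was -0.0575 to 0.364 with 1 sample left out, negative without SPS1 dsRNA replicate 1 or untreated replicate 2 (-0.0065) of that day. The cause of these shifts was not tested. Fits without a day 3 or day 5 sample leave 1 sample in that group, which is assumed to vary like the others.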
